A study of Mus musculus with 9 samples.

Results

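The transcripts of 42 lysosomal genes were described in mouse spinal cord after a contusion injury, with and without the phospholipase D inhibitor FIPI. The 42 genes are a given list of lysosomal enzymes, membrane proteins and regulators, and its rule sets no threshold on a measured value. All 42 symbols were found among the 52550 genes of the count table. All 42 also passed the filter on low counts, which 18699 genes passed. Atp6v0d2 and Tfec passed it through the injured mice, since each had fewer than 10 counts in at least 1 Sham mouse. The mice were adult females of the C57BL/6N strain, and every group was sampled 7 days after surgery. Sham mice had the vertebral plates removed without injury. SCI mice received a contusion at the T10 level and intraperitoneal dimethyl sulfoxide, the solvent of FIPI. SCI+FIPI mice received the same contusion and daily intraperitoneal FIPI. The labels give 3 mice per group, 9 in all, and mark both Sham and SCI as control treatment. A solvent injection is described for the SCI group and not for the Sham group, so injury and solvent cannot be told apart between them. Poly(A) RNA came from a segment of cord around the injury centre, which holds neurons, glia, vessels, meninges and infiltrating blood cells together. In such tissue, fewer cells of a type and less RNA per cell cannot be told apart.

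Lysosomes are acidic organelles in which proteins, lipids, glycans and nucleic acids are broken down. Cathepsins and other proteases cut proteins, glycosidases remove sugars from glycans and glycolipids, and small cofactors present lipids to their enzymes. The vacuolar ATPase (V-ATPase) pumps protons into the organelle, with a cytosolic V1 sector that splits ATP and a membrane V0 sector that carries the protons. TFEB, TFEC and MITF are related transcription factors of the basic helix-loop-helix type, and TFEB is known as a main regulator of lysosomal genes. In the injured cord, microglia and macrophages take up myelin and cell debris and deliver it to lysosomes. Neurons are also rich in lysosomes and in V-ATPase, which acidifies synaptic vesicles as well.

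The promoter sequences of the list are shown because its regulators bind a short known element. The E-box CACGTG and its extended form TCACGTGA, the core of the TFEB element of lysosomal genes, were searched together with GAGGAAGT, a core of the type bound by PU.1, an ETS factor of myeloid cells. Each motif was searched on both strands in RefSeq windows of GRCm38.p6, from 250 bases before to 50 bases after each start site. CACGTG and TCACGTGA read the same on both strands, and every TCACGTGA also holds a CACGTG. Windows were found for 36 of the 42 members, and none for Ctsb, Ctsh, Ctse, Asah1, Atp6v0d2 and Atp6v1b2. CACGTG was present for 14 of these 36 members, against 8.09% of all 27025 genes with a window. TCACGTGA was present for 6 of the 36 members, against 1.12% of all genes. GAGGAAGT was present for 4 members, namely Ctsc, Ctss, Gla and Gusb, against 3.69% of all genes. The following 5 stretches hold TCACGTGA and 1 holds GAGGAAGT, written 5′ to 3′ on the strand of the gene, with the motif in capitals (ACTTCCTC is the reverse complement of GAGGAAGT).
Ctsd, chr7:142387908-142387937, minus strand: tcgcccgcgtcTCACGTGAcccgttgaggg
Ctsa, chr2:164833749-164833772, plus strand: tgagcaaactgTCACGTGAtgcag
Gla, chrX:134601182-134601211, minus strand: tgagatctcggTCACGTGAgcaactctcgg
Mcoln1, chr8:3500462-3500491, plus strand: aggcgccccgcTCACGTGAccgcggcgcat
Atp6v1a, chr16:44139373-44139402, minus strand: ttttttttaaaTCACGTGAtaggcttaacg
Ctsc, chr7:88277923-88277952, plus strand: gtcactaactaACTTCCTCaggccacctcg
All 6 stretches lie before the RefSeq start site used. Those of Ctsd, Ctsa, Mcoln1 and Atp6v1a lie within the wider gene spans of the GENCODE M21 annotation. The other member with TCACGTGA was Atp6v0d1. A match of letters is a description of the sequence and does not show binding.

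The libraries held 20806000 to 24582377 counts per mouse, and replicates differed by more than sampling noise, so each was counted as a separate sample. Levels are given as CPM (counts scaled to a common library total) after trimmed mean of M-values (TMM) scaling, or as FPKM (the same also divided by gene length) where genes are compared with each other. Fold changes came from edgeR's quasi-likelihood test over all 9 mice, and p-values were adjusted by the Benjamini-Hochberg method over all 18699 genes. A gene is called higher or lower when its log2 fold change is at least 0.5 in size and its adjusted p is under 0.05. The exact permutation test of 3 against 3 mice cannot go below 0.1 for a single gene.

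Injury against sham surgery was the first comparison. At day 7, 33 of the 42 members were higher in SCI than in Sham, 2 were lower and 7 were not called. Over all genes, 24.4% were called higher and 22.5% lower. With at least 10 counts required in every mouse, which left out Atp6v0d2 and Tfec, 31 of the 40 remaining members were higher. The median log2 fold change of the members was 1.504, and that of all genes was -0.00. In 37 members every SCI mouse was above every Sham mouse, which held for 35.6% of all genes, and in 4 every SCI mouse was below, which held for 35.0%. Mcoln1 was the 1 member whose groups overlapped. Together the 42 members took 0.804%, 0.791% and 0.739% of all counts in the Sham mice and 2.82%, 2.74% and 3.10% in the SCI mice. The mean share was 3.71-fold higher in SCI. Without the 5 most abundant members (Ctsb, Psap, Ctsd, Grn and Ctss), the ratio was 2.31.

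**Figure D1:**
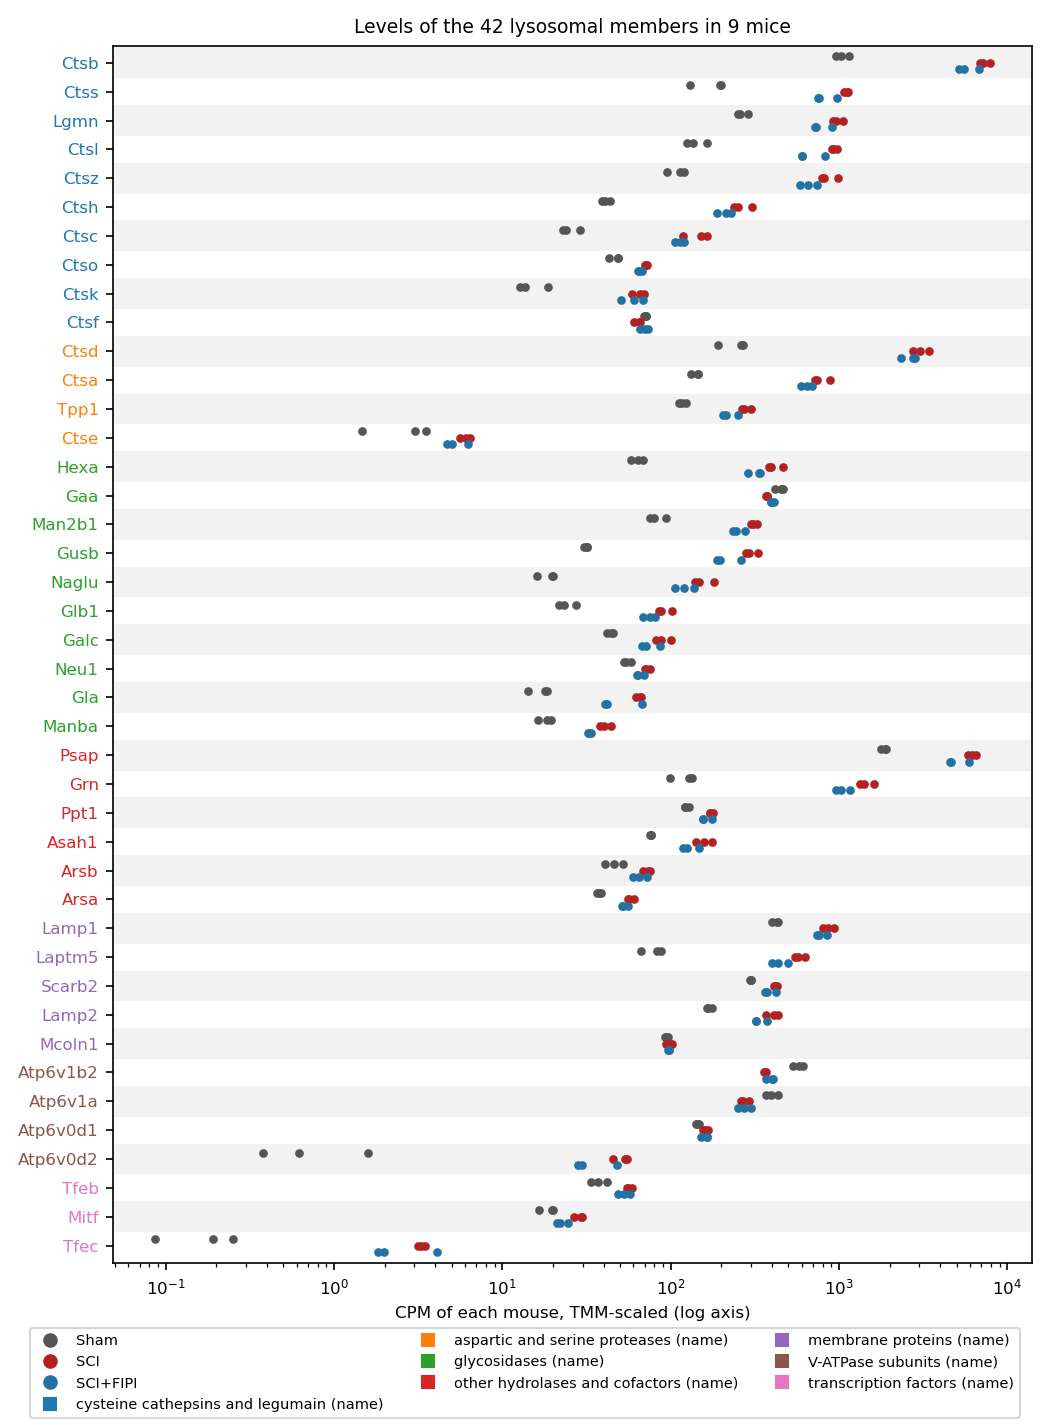
Level of each of the 42 members in each of the 9 mice, in CPM on a log axis, with Sham in grey, SCI in red and SCI+FIPI in blue, and gene names coloured by role. In 37 members the 3 SCI mice sit above the 3 Sham mice, and the SCI+FIPI mice lie near the SCI mice.

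Cysteine cathepsins, which cut proteins through a cysteine in their active site, and legumain were called higher in 9 of 10 cases, and the median of their log2 fold changes was 2.58. Ctsb, cathepsin B, was the most abundant of them per length, at 174 ± 16.3 FPKM in Sham and 1191 ± 92.5 FPKM in SCI (mean ± SD, n = 3). Its level was 1147, 1030 and 957 CPM in the Sham mice, 7161, 6835 and 7914 CPM in the SCI mice and 6829, 5196 and 5521 CPM in the SCI+FIPI mice. Every injured mouse was far above every Sham mouse, and the log2 fold change of SCI against Sham was 2.81 ± 0.11 (SE, edgeR adjusted p = 1.06e-10). Ctsz, cathepsin Z, a carboxypeptidase, had the largest change of the class, at a log2 fold change of 2.98. Ctsl, cathepsin L, followed at 2.72, then Ctsh, an aminopeptidase, at 2.68 and Ctss, which trims the invariant chain of MHC class II in antigen-presenting cells, at 2.65. Ctsc, which activates serine proteases of immune granules, changed by 2.52 on the log2 scale. Ctsk, the collagen-cleaving cathepsin of osteoclasts, changed by 2.11. Lgmn, legumain, an asparaginyl endopeptidase that processes cathepsins, changed by 1.89, and Ctso by 0.61.

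Ctsf, cathepsin F, went the other way. It stood at 71.3, 69.2 and 71.8 CPM in Sham, at 64.7, 60.3 and 65.6 CPM in SCI and at 66.0, 73.0 and 70.7 CPM in SCI+FIPI. All SCI mice lay below all Sham mice, but the log2 fold change of -0.16 was under the fold limit (edgeR adjusted p = 0.0324).

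The aspartic and serine proteases were all 4 called higher, and the median of their log2 fold changes was 1.86. Ctsd, cathepsin D, the main aspartic protease of lysosomes, stood at 268, 262 and 192 CPM in Sham, at 3015, 2734 and 3448 CPM in SCI and at 2743, 2324 and 2822 CPM in SCI+FIPI. No injured mouse came near the Sham range, and the log2 fold change of SCI against Sham was 3.67 ± 0.15 (SE, edgeR adjusted p = 2.56e-09), a 12.7-fold difference. Of the 50-base stretches of its longest transcript, 36.6% also occur in the read-through gene Gm49369. How reads of these stretches were counted is not given, so the level of Ctsd is less certain. Gm49369 is listed at 0 counts in all 9 mice. Ctsa, the carboxypeptidase that also protects neuraminidase and beta-galactosidase, changed by 2.47 on the log2 scale. Tpp1, tripeptidyl peptidase 1, changed by 1.25. Ctse, cathepsin E, was the lowest of the class at 1.46 to 3.50 CPM in Sham and 5.57 to 6.45 CPM in SCI, with a log2 fold change of 1.19.

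Of the 10 glycosidases, 8 were higher in SCI, and Gaa and Neu1 were not called. The median log2 fold change of the class was 1.91. Gusb, beta-glucuronidase, which removes glucuronic acid from glycosaminoglycans, had the largest change of the class. It stood at 32.0, 31.7 and 30.7 CPM in Sham, at 281, 293 and 328 CPM in SCI and at 260, 189 and 198 CPM in SCI+FIPI. The 3 groups did not overlap, and the log2 fold change of SCI against Sham was 3.26 ± 0.12 (SE, edgeR adjusted p = 8.96e-10). Naglu, which acts in heparan sulfate breakdown, changed by 3.06 on the log2 scale. Hexa, the alpha subunit of beta-hexosaminidase that acts on GM2 ganglioside, was the most abundant glycosidase in SCI per length, at 205 ± 22.9 FPKM against 32.3 ± 3.05 FPKM in Sham (mean ± SD, n = 3). It measured 64.3, 68.9 and 58.5 CPM in Sham, 394, 382 and 466 CPM in SCI and 339, 289 and 334 CPM in SCI+FIPI, again with no overlap between any of the groups, and its log2 fold change in SCI against Sham was 2.70.

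Gla, the alpha-galactosidase that cleaves globotriaosylceramide, changed by 1.94 on the log2 scale, Glb1, beta-galactosidase, by 1.92 and Man2b1, the lysosomal alpha-mannosidase, by 1.90. Manba, beta-mannosidase, changed by 1.18, and Galc, which breaks down the myelin lipid galactosylceramide, by 1.04. Neu1, the sialidase that Ctsa protects, had a log2 fold change of 0.39, under the fold limit, with all SCI mice above all Sham mice. Gaa, acid alpha-glucosidase, the enzyme that degrades glycogen in lysosomes, measured 463, 417 and 455 CPM in Sham, 376, 368 and 373 CPM in SCI and 392, 395 and 412 CPM in SCI+FIPI. All SCI mice lay below all Sham mice, at a log2 fold change of -0.26 (edgeR adjusted p = 0.00154), which is smaller than the fold limit. In Sham, Gaa was the most abundant glycosidase per length at 93.7 ± 4.09 FPKM, and it was at 76.8 ± 1.04 FPKM in SCI (mean ± SD, n = 3).

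Of the 6 other hydrolases and cofactors, 5 were higher in SCI, and the median of their log2 fold changes was 0.85. Psap, prosaposin, the precursor of the saposins that present sphingolipids to their hydrolases, was the most abundant of all 42 members per length, at 678 ± 29.2 FPKM in Sham and 2222 ± 124 FPKM in SCI (mean ± SD, n = 3). Its level was 1889, 1874 and 1774 CPM in Sham, 6169, 5849 and 6509 CPM in SCI and 5901, 4575 and 4649 CPM in SCI+FIPI. SCI and Sham were far apart, at a log2 fold change of 1.74. Grn, progranulin, a secreted and lysosomal protein that is cut into granulins, measured 134, 129 and 98.6 CPM in Sham, 1338, 1407 and 1619 CPM in SCI and 1169, 961 and 1022 CPM in SCI+FIPI. The 3 groups were separate, and SCI exceeded Sham by a log2 fold change of 3.59 ± 0.13 (SE, edgeR adjusted p = 5.07e-10). Asah1, acid ceramidase, changed by 1.05 on the log2 scale. The sulfatases Arsb and Arsa changed by 0.65 and 0.62. Ppt1, palmitoyl-protein thioesterase 1, at 0.48, fell just short of the fold limit.

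Of the 5 membrane proteins, 3 were higher in SCI. Lamp1, a heavily glycosylated protein of the lysosomal membrane and a standard marker of the organelle, was the most abundant of them per length, at 159 ± 8.20 FPKM in Sham and 320 ± 25.3 FPKM in SCI (mean ± SD, n = 3). It measured 431, 433 and 402 CPM in Sham, 932, 800 and 865 CPM in SCI and 854, 743 and 761 CPM in SCI+FIPI. Its log2 fold change in SCI against Sham was 1.04, with no overlap. Lamp2, which also acts in chaperone-mediated autophagy, changed by 1.27. Laptm5, a transmembrane protein of blood-derived cells, changed by 2.88. Scarb2, which carries glucocerebrosidase to lysosomes, was at 0.49, just short of the fold limit. Mcoln1, the calcium channel TRPML1, measured 93.2, 92.0 and 96.4 CPM in Sham, 98.7, 93.9 and 101 CPM in SCI and 96.9, 98.2 and 97.1 CPM in SCI+FIPI. Its groups overlapped, and its log2 fold change was 0.06 ± 0.05 (SE, edgeR adjusted p = 0.323).

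**Figure D2:**
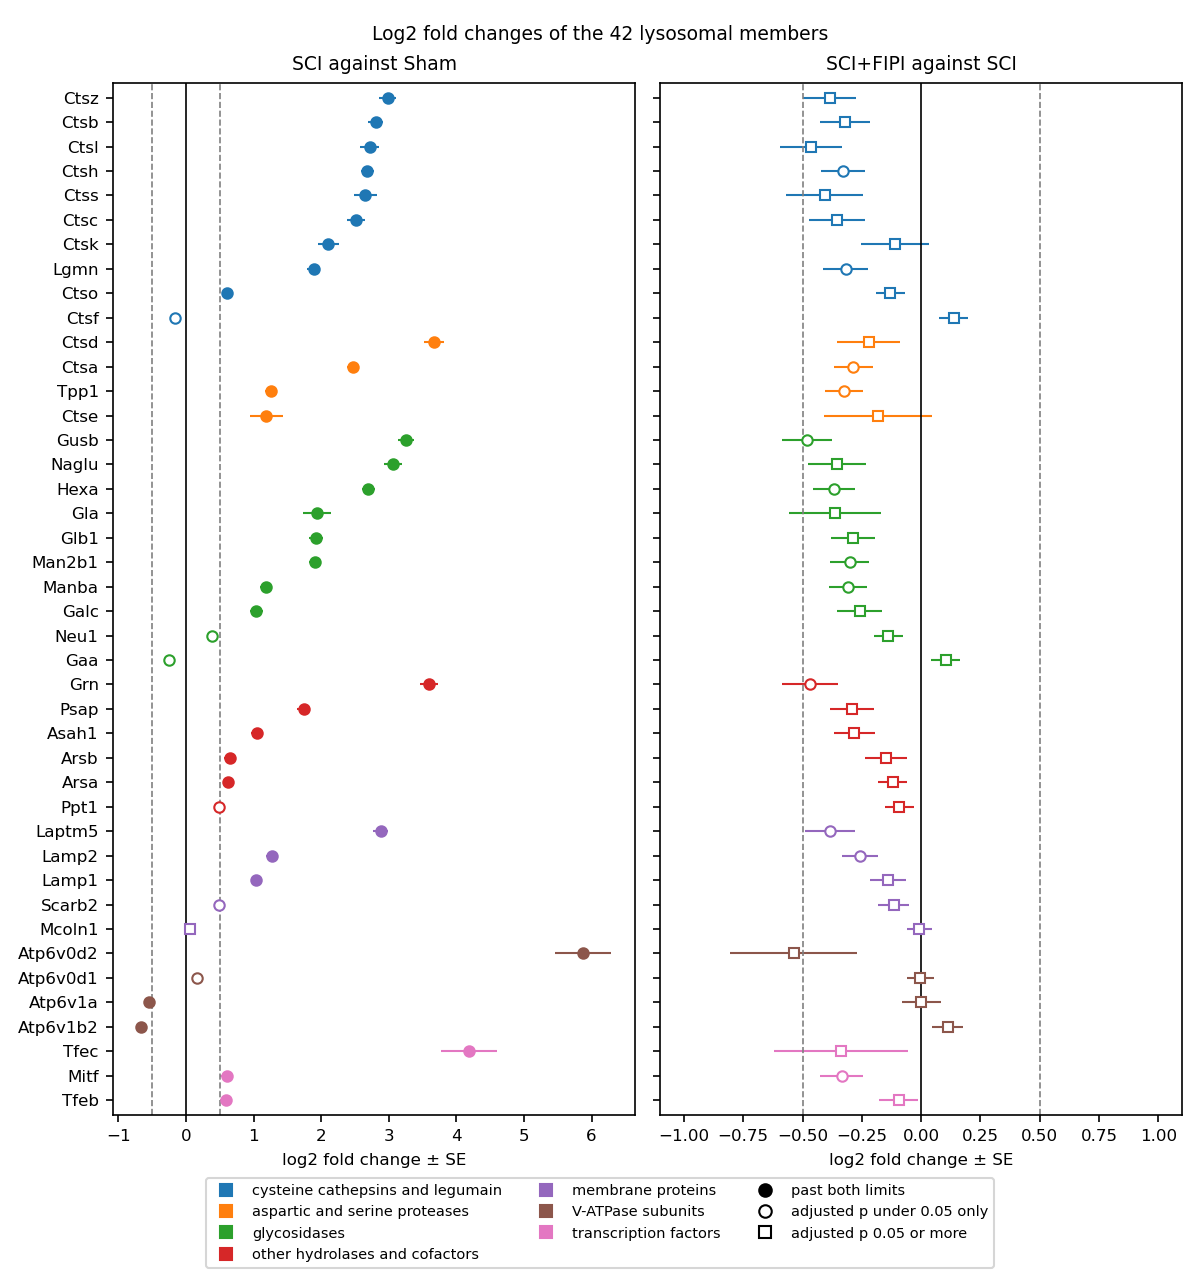
Log2 fold change with its standard error for each member in SCI against Sham (left) and SCI+FIPI against SCI (right, on a narrower axis), coloured by role. Filled circles passed both limits, open circles passed the adjusted p alone, open squares neither, and dashed lines mark log2 fold changes of -0.5 and 0.5; on the left 35 members passed both limits and on the right none did, while 38 of 42 lie below 0.

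The 4 V-ATPase members were divided. Atp6v0d2, the d2 form of the V0 d subunit, known from osteoclasts and macrophages, had the largest rise of all 42 members. It stood at 0.623, 1.60 and 0.376 CPM in Sham, from 13, 37 and 9 counts, and at 53.5, 45.5 and 55.0 CPM in SCI. It stood at 48.1, 28.2 and 29.9 CPM in SCI+FIPI. The log2 fold change of SCI against Sham was 5.88 ± 0.41 (SE, edgeR adjusted p = 9e-06), and its size is less certain than its direction since Sham counts were few. Atp6v0d2 was tested because its injured mice passed the low-count filter, so no weight is put on that p. Atp6v0d1, the d1 form found in most cells, measured 141, 143 and 147 CPM in Sham, 166, 155 and 160 CPM in SCI and 164, 152 and 164 CPM in SCI+FIPI. Its SCI mice were all above the Sham mice, by a log2 fold change of 0.16 that was under the fold limit (edgeR adjusted p = 0.0232). Per length, Atp6v0d1 remained the more abundant d subunit in SCI, at 88.2 ± 3.05 FPKM against 18.6 ± 1.91 FPKM for Atp6v0d2 (mean ± SD, n = 3), while Sham had 80.8 ± 1.63 and 0.323 ± 0.245 FPKM.

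The 2 members of the V1 sector were both lower after injury. Atp6v1a, the catalytic A subunit that splits ATP, measured 394, 366 and 437 CPM in Sham, 260, 294 and 268 CPM in SCI and 300, 272 and 250 CPM in SCI+FIPI. The log2 fold change of SCI against Sham was -0.54 ± 0.08 (SE, edgeR adjusted p = 3.42e-05), and it was -0.33 with offsets for GC share and exon length and -0.47 without Sham mouse 3, which no longer passed the fold limit. Atp6v1b2, the B2 subunit found in brain and most other tissues, measured 580, 531 and 608 CPM in Sham, 364, 367 and 356 CPM in SCI and 406, 398 and 370 CPM in SCI+FIPI. It had the largest fall of all 42 members, at a log2 fold change of -0.66 ± 0.07 (SE, edgeR adjusted p = 4.62e-07). All Sham mice lay above all injured mice for both subunits.

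The other 21 V-ATPase genes of mouse were taken from a separate list, and 18 of them passed the filter. Of these 18, 4 were higher in SCI and 4 were lower, near the 24.4% and 22.5% of all genes. The median log2 fold change of the 18 was 0.00. Tcirg1, the a3 form of the V0 a subunit known from osteoclasts and immune cells, had a log2 fold change of 2.64. Atp6v0a4, the a4 form, had 2.32 at no more than 5.91 CPM. Atp6v0e and Atp6v1g1 changed by 1.57 and 0.69. Among those that were lower, Atp6v1g2, the neuronal form of the G subunit, changed by -1.41 and Atp6v0e2, the partner form of Atp6v0e, by -0.85, while Atp6v1d and Atp6v1h each changed by -0.53. Among paired forms, Atp6v1g1 and Atp6v0e were higher where Atp6v1g2 and Atp6v0e2 were lower, and Atp6v0d2 was higher where Atp6v0d1 was not called; the differences between forms were not tested.

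**Figure D3:**
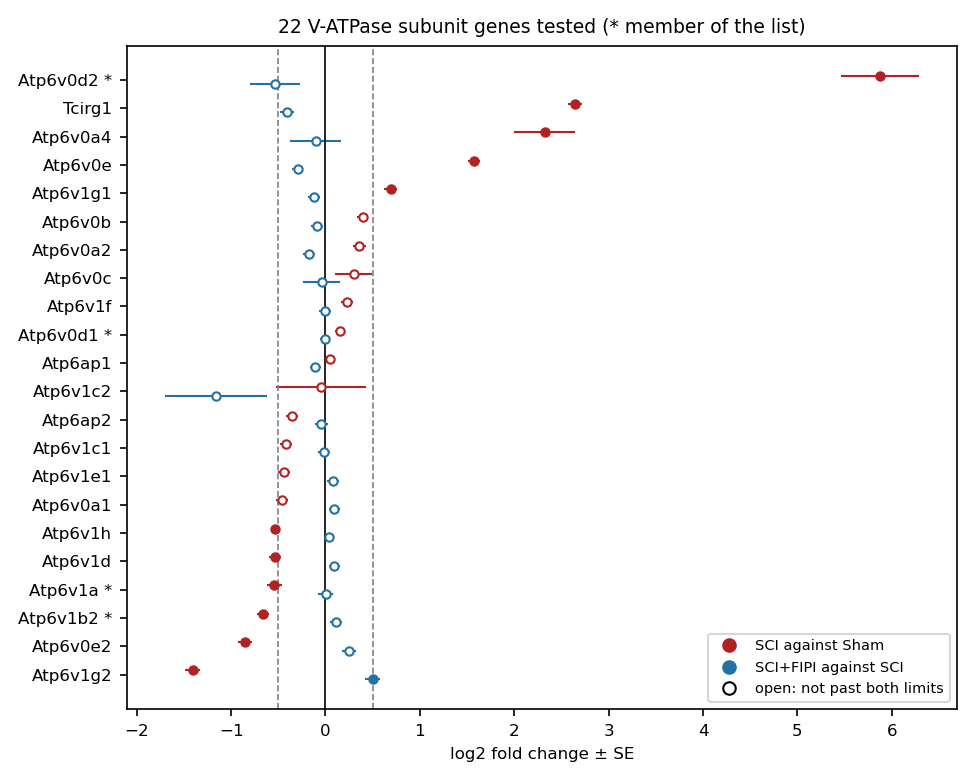
Log2 fold change with its standard error of the 22 V-ATPase genes tested, in SCI against Sham (red) and SCI+FIPI against SCI (blue), with filled points past both limits and members of the 42 marked by an asterisk. After injury 5 genes lie past the limit on the right and 6 on the left, and Atp6v1g2 is the 1 filled blue point, at 0.50.

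All 3 transcription factors were higher in SCI. Tfeb measured 42.1, 37.1 and 33.5 CPM in Sham, 58.6, 55.1 and 55.9 CPM in SCI and 48.8, 53.0 and 57.0 CPM in SCI+FIPI. It was the most abundant of the 3 per length, at 6.68 ± 0.777 FPKM in Sham and 9.85 ± 0.344 FPKM in SCI (mean ± SD, n = 3), and changed by 0.59 on the log2 scale. Mitf changed by 0.60. Tfec, whose expression is known mainly from macrophages, had only 4, 2 and 6 counts in the Sham mice, against 78, 84 and 75 in SCI and 91, 43 and 47 in SCI+FIPI. Its log2 fold change was 4.18 ± 0.42 (SE, edgeR adjusted p = 4.77e-07), and even in SCI its level was 0.583 ± 0.0262 FPKM (mean ± SD, n = 3). Tfec too was tested because its injured mice passed the low-count filter, so no weight is put on that p. Tfe3, a related factor from a separate list of lysosomal genes, changed by 0.89.

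The 6 members with TCACGTGA did not share 1 direction. Ctsd, Ctsa and Gla were called higher, with log2 fold changes of 3.67, 2.47 and 1.94. Mcoln1 and Atp6v0d1 were not called, and Atp6v1a was lower. The members with GAGGAAGT, Ctsc, Ctss, Gla and Gusb, were all called higher. They number 4, and the list as a whole was mostly higher, so nothing is drawn from the match.

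A second list of 45 lysosomal proteins outside the 42 gave the wider view, and 43 of them passed the filter. Of these 43, 31 were higher in SCI and 4 were lower, against 24.4% and 22.5% of all genes. The median log2 fold change of the 43 was 0.91. The largest changes were those of Cd68, a glycoprotein of macrophage lysosomes, at 4.55 and Acp5, tartrate-resistant acid phosphatase, at 4.10. Galns followed at 3.00, Dnase2a, the acid nuclease, at 2.96, the metal transporter Slc11a1 at 2.91 and acid lipase Lipa at 2.65. Lamp5, the neuronal member of the LAMP family, was lower by a log2 fold change of -1.81, whereas Lamp1 and Lamp2 were higher.

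Of 9 inhibitors of cathepsins, 5 passed the filter. Cst7, Cstb, Serpinb6a and Cst3 were higher, with log2 fold changes of 2.14, 1.86, 1.64 and 0.71. Cst6 was lower, at -0.66.

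Markers of cell types moved with these changes. All 10 markers of microglia and macrophages were called higher in SCI, and their summed level was 460 to 653 CPM in Sham and 3111 to 3728 CPM in SCI. Of 6 markers of infiltrating monocytes and macrophages, 5 were higher, from 17.5 to 31.0 CPM in Sham to 198 to 229 CPM in SCI. The ratio of the summed shares of counts of the first 10 markers was 5.70, beside 3.71 for the 42 lysosomal members. All 10 neuron markers were lower, with a summed level of 6446 to 7174 CPM in Sham and 1802 to 2589 CPM in SCI. Of 6 endothelial markers, 5 were higher, from 248.8 to 272 CPM in Sham to 442 to 476 CPM in SCI. All 6 fibroblast markers were higher, from 350 to 939 CPM in Sham to 8816 to 11862 CPM in SCI. Of the 6 markers of homeostatic microglia, 3 were higher and 3 not called. Astrocyte markers were divided, with 3 of 8 higher and 2 lower, and 4 of 8 oligodendrocyte markers were lower. Of 8 tested bone and osteoclast markers 2 were higher and 1 was lower, with log2 fold changes from -0.83 to 6.68. The summed level of this mixed list was 29.0 to 35.3 CPM in SCI, below the 36.94 to 41.96 CPM of Sham. That sum does not give the direction of each gene, and Ocstamp, an osteoclast fusion gene, was at 0 in Sham. The part of these cell types in the lysosomal changes was not tested.

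**Figure D4:**
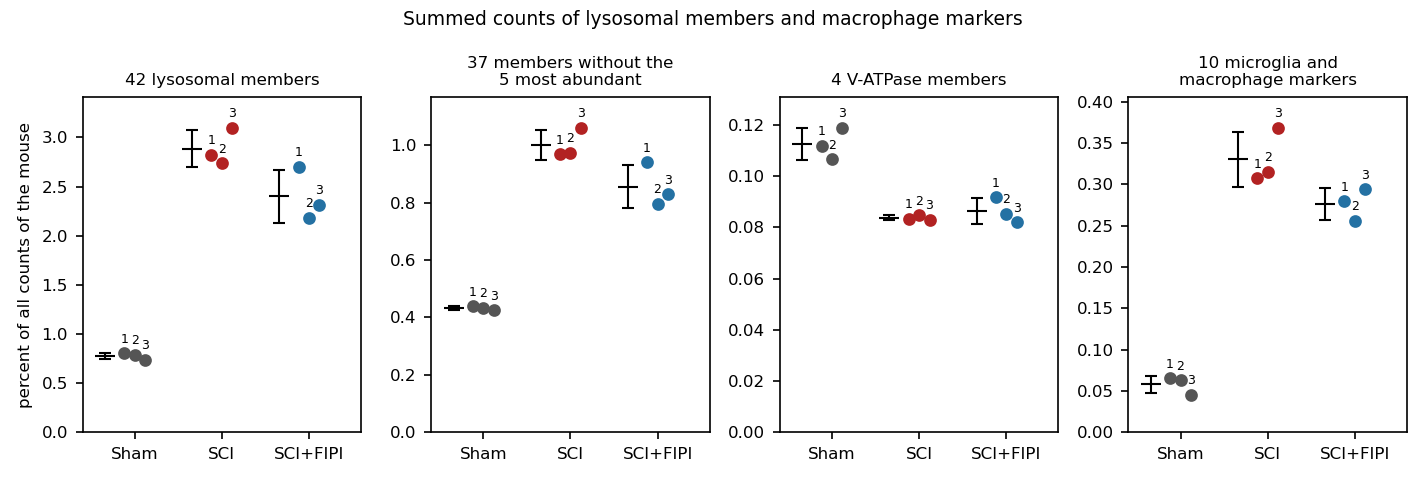
Percent of all counts taken in each mouse by the 42 members, by the members without the 5 most abundant, by the 4 V-ATPase members and by 10 microglia and macrophage markers, with mean and SD of 3 mice beside the points and the mouse number above each. The members sit near 0.8% in Sham and between 2.18% and 3.10% in injured mice. The summed share of the 4 V-ATPase members is lower after injury, though only Atp6v1a and Atp6v1b2 of them were called lower.

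FIPI against solvent in injured mice was the second comparison. It shares the SCI mice with the first. No member was called in SCI+FIPI against SCI by edgeR, DESeq2 or limma-voom, against 2.36% of all genes called higher and 0.695% called lower by edgeR. The members nevertheless lay mostly on 1 side, with 38 of 42 log2 fold changes below 0 and a median of -0.29, where all genes had 9407 of 18699 below 0 and a median of -0.00. At adjusted p under 0.05 alone, 12 members were lower and 0 higher, against 3.58% and 6.04% of all genes. At unadjusted p under 0.05, 24 members were lower and 1 was higher, against 11.5% and 13.7% of all genes. In 20 members every SCI+FIPI mouse lay below every SCI mouse, which held for 14.5% of all genes, and in 3 every SCI+FIPI mouse lay above, which held for 15.7%. The same SCI mice enter both comparisons, and 33 members had been called higher in them than in Sham. High values in these SCI mice would therefore give both patterns. Genes that rose after injury as the members did were not used as the background, so these shares do not account for that.

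The 12 members that were lower at adjusted p alone came from 6 of the 7 roles, with none among the V-ATPase subunits. They were the proteases Ctsh, Lgmn, Ctsa and Tpp1, the glycosidases Hexa, Gusb, Man2b1 and Manba, progranulin (Grn), the membrane proteins Lamp2 and Laptm5, and the transcription factor Mitf. Gusb had the largest of these differences, at a log2 fold change of -0.48 ± 0.11 (SE, edgeR adjusted p = 0.0198), and Grn was at -0.47 ± 0.12 (adjusted p = 0.0292). Both had SCI+FIPI levels wholly below the SCI range. For Laptm5 the value was -0.38, for Hexa -0.37 and for Mitf -0.34. The other 7 lay between -0.33 and -0.26.

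Atp6v0d2 had the lowest point estimate, at a log2 fold change of -0.54 ± 0.27 (SE, edgeR adjusted p = 0.271). Its SCI+FIPI mice were uneven, since mouse 1 at 48.1 CPM was within the SCI range and mice 2 and 3 at 28.2 and 29.9 CPM were below it. Tfec had the same shape in counts, with 91 in mouse 1 against 43 and 47 in mice 2 and 3. Gla did as well, at 68.0, 41.9 and 40.9 CPM in SCI+FIPI against 62.1, 66.2 and 65.6 CPM in SCI. In these genes SCI+FIPI mouse 1 was within or above the SCI range, and mice 2 and 3 were below it.

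The most abundant enzymes gave smaller or less even differences. Ctsb had a log2 fold change of -0.32 (edgeR adjusted p = 0.0674), Psap of -0.29 (0.0621), Ctss of -0.41 (0.16) and Ctsd of -0.22 (0.337). Ctsb and Ctss had no overlap between the groups, Psap and Ctsd did. Ctsl was at -0.46 (adjusted p = 0.0551) and Ctsz at -0.39 (0.0532), both just above the limit for the adjusted p and both with no overlap. Lamp1 was at -0.14 (adjusted p = 0.271), while Lamp2 was at -0.26 (0.0491).

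Ctsc, Naglu, Glb1, Asah1 and Galc had log2 fold changes between -0.35 and -0.26, with adjusted p of 0.0591 to 0.103. Ctse, Arsb, Neu1, Ctso, Arsa, Scarb2 and Ctsk lay between -0.18 and -0.11. Nearest to 0 were Tfeb and Ppt1 at -0.09, Mcoln1 at -0.01, Atp6v0d1 at -0.00 and Atp6v1a at 0.00. The standard errors of Mcoln1, Atp6v0d1 and Atp6v1a were 0.05, 0.06 and 0.08.

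Against 15.7% of all genes, 3 members had all SCI+FIPI mice above all SCI mice. They were Ctsf at a log2 fold change of 0.14, Atp6v1b2 at 0.11 and Gaa at 0.10, with adjusted p of 0.166, 0.315 and 0.309. These are 3 of the 4 members in which all SCI mice lay below all Sham mice, and Atp6v1a is the other. The same SCI mice enter both comparisons, so low values in SCI would give both patterns, and nothing is drawn from this.

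**Figure D5:**
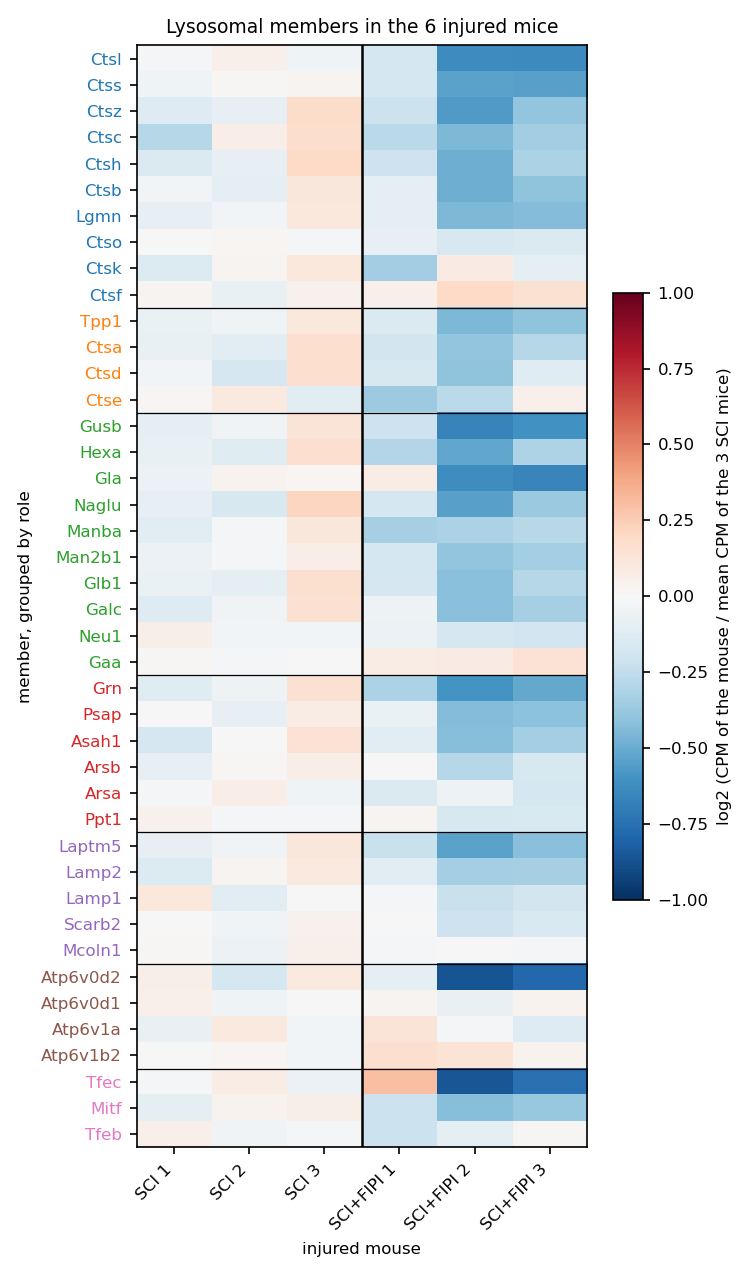
Heat map of the 42 members in the 6 injured mice, with the colour giving the log2 ratio of each mouse's CPM to the mean CPM of the 3 SCI mice, rows grouped by role and names coloured as in the plot of levels. Blue is lower than the SCI mean and red higher; mice 2 and 3 of SCI+FIPI are bluer than mouse 1, and the V-ATPase members other than Atp6v0d2 stay near white or red.

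How many members passed the limits depended on single mice. Within SCI+FIPI, mouse 1 had the highest level of its group in 32 of 42 members, and mouse 2 had the lowest in 28. Within SCI, mouse 3 had the highest level in 28. Without SCI+FIPI mouse 1, 4 members were called lower, namely Gla at -0.64, Gusb at -0.64, Ctsl at -0.63 and Grn at -0.55, and 18 were lower at adjusted p alone. Without SCI mouse 1, 2 members were called lower and 15 were lower at adjusted p alone. Without SCI mouse 3 or without SCI+FIPI mouse 2, no member passed the adjusted p, and without SCI mouse 2 or SCI+FIPI mouse 3 only 1 did. The median of the members stayed between -0.36 and -0.21 whichever mouse was left out. With offsets for GC share and exon length, Ctsl, Gusb and Grn were called lower, each at a log2 fold change of -0.51. The median of all genes was -0.05 in that fit. The shares of all genes called with a mouse left out or with the offsets are not given here. No change particular to the members is therefore drawn from these counts.

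In the wider lists, 1 of the 43 other lysosomal proteins tested was called in SCI+FIPI against SCI. This was Lamp5, which was higher at 97.1, 97.2 and 90.6 CPM against 69.7, 67.3 and 53.1 CPM in SCI, a log2 fold change of 0.58 (edgeR adjusted p = 0.008). Another 13 were lower at adjusted p alone, and 36 of the 43 lay below 0. Cd68, the largest riser of that list after injury, had a log2 fold change of -0.48 (adjusted p = 0.29). Among the other V-ATPase genes, Atp6v1g2 was called higher at 0.50 (adjusted p = 0.0038). Tcirg1 and Atp6v0e, which were higher after injury, had log2 fold changes of -0.41 and -0.30 and passed the adjusted p alone. Atp6v0e2, which was lower after injury, passed it in the other direction, at 0.25. The comparisons share the SCI mice, so opposite signs can come from those mice alone. Together the lists had 2 genes called higher, but 1 by RLE scaling, by DESeq2, without the filter on low counts, with the offsets, or without SCI+FIPI mouse 1 or 2, and 0 without SCI mouse 3. Of the inhibitors, Cstb had a log2 fold change of -0.42 and passed the adjusted p alone.

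Marker genes moved beside these values. All 10 microglia and macrophage markers had log2 fold changes below 0, with a median of -0.30, and none was called. Their summed level was 2553 to 2926 CPM in SCI+FIPI, below the 3111 to 3728 CPM of SCI. The ratio of the summed shares of counts was 0.837 for these markers and 0.832 for the 42 lysosomal members. Endothelial markers also summed to less, at 349 to 422 CPM against 442 to 476 CPM in SCI. Infiltrating monocyte and macrophage markers summed to 147 to 196 CPM against 198.5 to 229 CPM in SCI. Of these 6 markers, 5 were below 0 and 1 above, with log2 fold changes from -1.04 to 0.37, and 4 overlapped between the groups. Homeostatic microglia markers were divided, with 3 of 6 below 0, 3 above and a median of -0.05. No gene of these 3 lists was called. Markers of fibroblasts, astrocytes and oligodendrocytes had median log2 fold changes of -0.14, 0.01 and 0.09, and none of them was called. The summed share of the members was 2.70%, 2.18% and 2.32% in SCI+FIPI, and all 3 mice were below the 3 SCI mice. Of 10 neuron markers, 6 were called higher, and their sum was 2995 to 3598 CPM against 1802 to 2589 CPM in SCI. Neutrophil markers summed to 29.3 CPM in 1 SCI+FIPI mouse and to 132 and 145 CPM in the others, with 62.0 to 75.7 CPM in SCI. Schwann cell markers ranged from 459 to 990 CPM in SCI+FIPI and from 606 to 760 CPM in SCI. Bone and osteoclast markers summed to 29.6, 58.2 and 67.0 CPM in SCI+FIPI, from lowest to highest, against 29.0 to 35.3 CPM in SCI, and 1 of 8 tested (Bglap) was called higher. Whether cell numbers account for any of the lysosomal differences was not tested.

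FIPI-treated injured mice against Sham was the third comparison, and it shares its groups with the other 2. In SCI+FIPI, 28 members were higher than in Sham and 2 lower, against 21.2% and 17.0% of all genes, and the median of the 42 log2 fold changes was 1.23. The 28 were members that had also been called higher in SCI. The other 5 that were called in SCI against Sham were Ctso, Arsa, Arsb, Tfeb and Mitf. Ctso had log2 fold changes of 0.61 in SCI and 0.48 in SCI+FIPI, each against Sham. Arsa and Arsb had 0.50 in SCI+FIPI, and Tfeb also had 0.50, all just under the fold limit before rounding, while Mitf had 0.27. Atp6v1a and Atp6v1b2 remained lower than in Sham, at -0.54 and -0.55. Atp6v1a was no longer called with the offsets (-0.37), without Sham mouse 3 (-0.47) or without SCI+FIPI mouse 3 (-0.48). Atp6v0d2 still had the largest value at 5.34, followed by Tfec at 3.85, Ctsd at 3.45, Grn at 3.12 and Gusb at 2.78. Atp6v0d2 and Tfec were tested because their injured mice passed the low-count filter, so no weight is put on their p. With at least 10 counts required in every mouse, which left both out, 29 of the 40 remaining members were higher than in Sham. In that fit Arsa, Arsb and Tfeb were just past the fold limit. Gaa had a log2 fold change of -0.15 and Ctsf of -0.02 against Sham.

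Several members share exonic sequence with a neighbouring gene, and reads there could be counted for either. Exons of Arsb overlap those of 2 other genes over 39.9% of its length, but these had 0 to 6 counts per mouse. Ctsl overlaps Gm47123 and Gm49230 over 26.8%, and both are listed at 0. Arsa overlaps C230037L18Rik over 18.8% and Ctsa overlaps Pltp and Neurl2 over 17.4%. Ctsb overlaps Fdft1 and Hexa overlaps Tmem202, each on the other strand and over 12.8%. Pltp had 1565 to 1841 counts in Sham and 4108 to 4793 in SCI, so the overlap with Ctsa involves a gene that also differed between these groups. Fdft1 differed as well, in the direction opposite to Ctsb, with 2038 to 2332 counts in Sham and 868 to 1037 in SCI. Whether the counting used strand is not given in the sources used here.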

How the data were processed

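RNA was sequenced from 9 spinal cords, 3 per group, after poly(A) selection. The authors deposited 1 table of whole-number counts per gene (52550 Ensembl genes), made with genome build GRCm38 and R 4.2.3 per the submitters' processing notes. The aligner, counter, annotation version and strand setting are not given in the sources used here. Column names gave each mouse's group, and the 42 symbols were matched to Ensembl identifiers through GENCODE M21. The members and the other gene lists were chosen with earlier results of these data known. All 42 members are named. Values in every mouse are given for the 3 largest and 3 smallest changes of each comparison and for the most abundant member of each role, with Mcoln1, Gla and Tfec counts added after their values were seen. Of each other list, up to 6 genes with the largest change after injury and those called in SCI+FIPI against SCI are named; Tfe3 and the genes given for adjusted p alone were added afterwards.

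Counts were filtered with filterByExpr, which kept 18699 genes, scaled by TMM (factors 0.985 to 1.02) and fitted with edgeR 4.0.16 (glmQLFit, robust) with 1 mean per group in R 4.3.3. Depth was 20806000 to 24582377 counts, and the common dispersion was 0.00866. The limits on fold and adjusted p follow the study's methods. FPKM is the count divided by the mouse's raw total and by the length of all exons of the gene, on the usual scale. In simulated counts for SCI against Sham, 95 of 100 genes changed by 2-fold and 69 of 100 changed by 1.5-fold were called, with 0 false calls. For SCI+FIPI against SCI the numbers were 96 and 78, with 5 false calls. All simulated mice shared 1 mean per gene before the change, and the changed genes were drawn from those above a floor of counts. Alternatives were RLE scaling, other count filters, DESeq2 1.42.0, limma-voom (limma 3.58.1), a fit of only the groups compared, a replicate block, offsets for GC share and exon length, other limits, and leaving out each mouse. The labels do not say that mice came from separate litters or batches, and p-values measure the spread between these mice.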

Additional observations from a re-analysis of the deposited data

How the results depend on the processing

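Depth, group size and the fold limit all bound what could be called. Of genes changed by 1.5-fold in the simulated counts, which is just past the fold limit, 69 and 78 of 100 were called. The simulation held no change under that limit, where every member's difference between SCI+FIPI and SCI lay except that of Atp6v0d2. Its spread came from the dispersion of the fit alone, with no further spread of single genes or mice. The numbers called there could therefore be higher than in the data. In the data, 1 mouse could decide a call. Counts under the alternatives are given without the share of all genes called, so they describe the listed genes only. Between SCI and Sham, 33 members were called higher, and 28 to 37 under the alternatives that kept all mice. The numbers called lower were 1 with offsets for GC share and exon length, 4 at adjusted p alone and 0 at a log2 fold change of at least 1. The other lists, of lysosomal proteins, V-ATPase subunits and cathepsin inhibitors, are counted together here as other listed genes, of which 66 were tested. Of these the main count called lower was 9, with 15 at adjusted p alone and 2 at the larger fold. The offsets moved the median of all genes in SCI against Sham by 0.12 and that of the members from 1.504 to 1.74; the cause was not tested.

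Between SCI+FIPI and SCI, members called lower numbered 0, 3 with the offsets, also with the replicate block added to them (chosen after seeing the data), and 12 at adjusted p alone. The 12 became 22 without the filter, 20 by DESeq2, 19 with block and offsets and 14 by limma-voom, but 11 by RLE or with only the 2 groups fitted, 10 with at least 10 counts in every mouse and 8 with the block alone. Other listed genes called higher numbered 2, 1 by RLE, DESeq2, no filter or the offsets with or without the block, and 0 at the larger fold. Those called lower numbered 0, 2 with the offsets, 1 with block and offsets or by DESeq2, and 16 at adjusted p alone. Between SCI+FIPI and Sham, members called lower numbered 2, then 1 with the offsets with or without the block and 0 at the larger fold. Other listed genes called lower numbered 5, then 14 at adjusted p alone and 1 at the larger fold.

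Leaving out each mouse gave 33 to 34 members higher and 1 to 2 lower in SCI against Sham, 0 to 4 lower in SCI+FIPI against SCI, 0 to 18 lower there at adjusted p alone, and 29 to 31 higher and 1 to 2 lower in SCI+FIPI against Sham. For the other listed genes it gave 39 to 39 higher and 8 to 10 lower, 0 to 2 higher and 0 to 3 lower, and 33 to 36 higher and 5 to 6 lower. Mice of the same number in different groups did not deviate together (r from -0.0726 to 0.108 over 9 pairs), and the replicate block alone changed no count of members past both limits, with 33 higher and 2 lower in SCI against Sham and 0 lower in SCI+FIPI against SCI. Without the 5 most abundant members, the summed share of counts was 0.4326% in Sham, 1.00% in SCI and 0.8551% in SCI+FIPI.

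Signs changed only close to 0. In SCI+FIPI against SCI, Atp6v0d1 had 0.0024 with at least 10 counts in every mouse and 0.0019 with only the 2 groups fitted, and -0.0261 to 0.0315 with single mice left out. Atp6v1a had -0.0005 by RLE and DESeq2, -0.0007 by limma-voom, -0.0026 without the filter, -0.0387 with the offsets and -0.0386 with block and offsets, and -0.0698 to 0.0628 with single mice left out. Mcoln1 had -0.0392 to 0.0161 with single mice left out. In SCI+FIPI against Sham, Atp6v0d1 had -0.0362 with the offsets and -0.0336 with the block added, and Ctsf had -0.0488 to 0.0220 with single mice left out.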
